A study of Mus musculus with 11 samples.

Results

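Thrombin receptors and genes of coagulation and fibrinolysis were examined in the aorta of old mice given dietary nitrate. The 9 genes were chosen by name as the 4 protease-activated receptors F2r, F2rl1, F2rl2 and F2rl3, the thrombin cofactor receptor Thbd, tissue factor F3 with its inhibitor Tfpi, and the plasminogen activators Plat and Plau. They are 9 of 36413 gene names on the array and have 13 of its 55681 probes other than control probes. No measured value entered the choice, although earlier results of these data were known when it was made. The study asked which aortic transcripts differ after a nitrate supplement in old age. Each of the 11 mice was measured on 1 one-color Agilent array, where Cy3-labeled RNA binds short DNA probes.

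Both groups were male C57BL/6 mice aged 20 months on standard chow, and the tissue was the flushed descending aorta cleaned of surrounding fat. The 5 nitrate treated mice drank water with 1 g/L sodium nitrate (NaNO3) for 8 weeks. The 6 old control mice were, per the paper, given an equal concentration of sodium chloride. The labels conflict here: the agent field and the titles mark these samples as controls without nitrate, while a treatment text that is the same for every sample states nitrate for the controls too. Groups were taken from the agent field, titles and source names, and every difference below rests on that reading. The labels name no sodium chloride and describe the control arrays as a further analysis of earlier samples, so they do not show that both groups were housed together. No genetic change or transgene was involved. A further nitrate array named in the methods was not analysed here.

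Thrombin is the protease that turns fibrinogen into fibrin, and it also signals to cells by cleaving the outer end of protease-activated receptors, which couple to G proteins. In the vessel wall, tissue factor starts the cascade that makes thrombin, and tissue factor pathway inhibitor damps that start. Thrombomodulin binds thrombin on endothelium and turns it toward activation of protein C. Tissue and urokinase plasminogen activators make plasmin, which dissolves fibrin.

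The probes through which each value was read matter here, since most of these genes had 1 probe. Positions are those of the probes on mouse build mm9, and the array files hold the sequences, written 5′ to 3′. The sequences of the 2 genes that were called, of a probe that spans a splice site, and of 1 receptor probe that stayed near background are shown. For F2r, the first 30 of 60 bases are given. Capitals in the Plat probe mark the stop codon at bases 46 to 48, so that this probe reads the end of the coding sequence and 12 bases after it.
F2r, chr13:96371902-96371961, minus strand: tttccaaatactgtagagtcgcttccacga
Plat, chr8:23892531-23892590, plus strand: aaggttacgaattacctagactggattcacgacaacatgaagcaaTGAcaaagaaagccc
F3, chr3:121434609-121435346, plus strand: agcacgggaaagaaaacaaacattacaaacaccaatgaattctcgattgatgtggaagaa
F2rl3, chr8:75287099-75287158, plus strand: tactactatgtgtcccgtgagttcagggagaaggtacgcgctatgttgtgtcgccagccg
The F3 probe covers 738 bases of genome with 60 bases of sequence, so it lies across an intron, and a second F3 probe lies at chr3:121437717-121437776.

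The arrays lay on 3 slides with mice of both groups on each. Slides 1 and 3 each held 2 nitrate treated mice and 2 controls, and slide 2 held nitrate treated mouse 3 with 2 controls. Column 3 of the slides held the controls and none of the nitrate treated mice, so column and treatment cannot be told apart. The correlation of log2 signals between pairs of arrays lay between 0.982 and 0.995, and control 1 had the lowest mean correlation, 0.985. At most 186 of 59305 spots on an array were flagged and 0 were saturated. Precision is limited by the number of arrays. A transcript was called where its fold change exceeded 1.2 with an unadjusted limma P value below 0.05. This held for 2128 of 23633 detected transcripts, or 9%, with 982 higher and 1146 lower in nitrate treated mice. With Benjamini-Hochberg adjustment 3 transcripts passed, or 0.0127%.

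Of the 9 genes, 5 were detected (F2r, Thbd, F3, Tfpi and Plat), through 8 of the 13 probes. A probe was detected where the scanner software found its spot, clearly brighter than background, on 5 or more arrays of either group, and all 8 were well above background on all 11 arrays. F2r and Plat were called, both higher in nitrate treated mice, and none was called lower, against 4.16% of detected transcripts called higher and 4.85% called lower. Thbd had an unadjusted P value under 0.05 but its fold change stayed under 1.2, and F3 and Tfpi passed neither limit. An unadjusted P value under 0.05 was thus found for 3 of the 5 genes with limma, beside 14.4% of all detected transcripts, and for Thbd and Plat it depended on the setting and on single mice, as given with their values. The count of 2 called genes was 1 with the replicate block, without nitrate treated mouse 1 and without mouse 2, where Plat was not called. After adjustment over all detected transcripts, 0 of the 5 passed. All 8 detected probes had a difference above 0, as had 53.8% of detected transcripts. The median difference of the 5 genes, each taken by its brightest probe, was 0.19 on the log2 scale, and that of all detected transcripts was 0.01.

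F2r encodes PAR1, the main thrombin receptor of vascular smooth muscle and endothelium. Its log2 signal was 11.16, 11.37, 11.04, 11.05 and 11.03 in nitrate treated mice 1 to 5, and in controls it ran from 10.59 to 10.87 with a median of 10.77. Every nitrate treated mouse lay above every control, as was so, in this direction, for 1.61% of detected transcripts. The means were 11.13 ± 0.14 (SD, n = 5) and 10.75 ± 0.12 (SD, n = 6), and the difference was 0.38 ± 0.08 (SE), with a 95% interval from 0.20 to 0.56 and a fold change of 1.30. The unadjusted P value from limma was 0.00063, which ranked 122 among the detected transcripts, and the adjusted P value was 0.121. The two-sided exact permutation test over all 462 divisions of the mice gave P = 0.00216, the smallest it can give. F2r is in a gene table of the study that rests on this same series, with 6 replicates per group per the paper. Its direction is therefore no independent evidence. In whole aorta, a change in the number of cells of a type and a change in RNA per cell cannot be told apart.

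The rise of F2r was seen on each slide, although slide 2 held only 1 nitrate treated mouse. The difference was 0.47 on slide 1, 0.33 on slide 2 and 0.30 on slide 3, and with slide as a block it was 0.37 (limma P value 0.000755, adjusted P = 0.104). Leaving out any 1 of the 11 mice left differences from 0.32 to 0.41, and F2r was called each time.

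**Figure D1:**
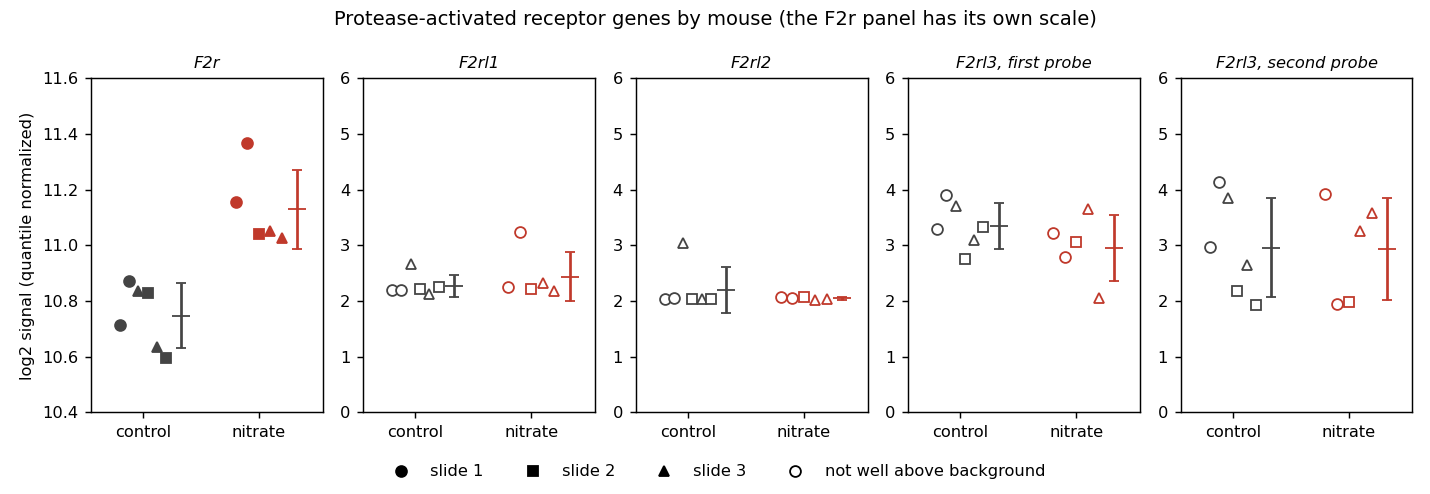
Log2 quantile normalized signal of the probes of 4 protease-activated receptor genes in 6 control (grey) and 5 nitrate treated (red) mice. Each symbol is a mouse, its shape is the slide, open symbols were not well above background, and the cross with bars is the mean ± SD. The F2r groups do not overlap, and the probes of F2rl1, F2rl2 and F2rl3 have only open symbols.

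The other 3 receptor genes were not well above background on any of the 11 arrays, so only F2r gave a level among the receptors. F2rl1 encodes PAR2, which is cleaved by trypsin-like proteases and by the complex of tissue factor and factor VIIa, rather than by thrombin. Its log2 signal lay between 2.18 and 3.23 in nitrate treated mice and between 2.12 and 2.67 in controls. F2rl2 encodes PAR3, a thrombin-binding receptor that helps to activate PAR4 on mouse platelets, and its signal lay between 2.02 and 2.07 and between 2.03 and 3.04. F2rl3 encodes PAR4, the signaling thrombin receptor of mouse platelets. Its probe printed above lay between 1.94 and 3.92 in nitrate treated mice and between 1.93 and 4.14 in controls, and its other probe, at chr8:75286711-75286770, between 2.06 and 3.65 and between 2.75 and 3.91. Since both groups lay at background, no fold change is given for these 3 genes.

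F2r, F2rl1 and F2rl2 are neighbors on chromosome 13, with probes at chr13:96371902-96371961, chr13:96282038-96282097 and chr13:96471885-96471944 that span 189.907 kb. Within this span and 100 kb on either side lie 6 probes, of which that of F2r alone was detected. The other probes there, 1 each for Crhbp, S100z and Iqgap2, were not detected either. Probes of these genes outside the window were not examined.

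Thbd encodes thrombomodulin, the endothelial cofactor that redirects thrombin toward protein C. Its probe at chr2:148230235-148230294 gave 11.65, 11.63, 11.30, 11.58 and 11.57 in nitrate treated mice 1 to 5, and 11.25 to 11.56 with a median of 11.31 in controls. Nitrate treated mice 1, 2, 4 and 5 lay above every control, while mouse 3 lay among them. The means were 11.55 ± 0.14 (SD, n = 5) and 11.35 ± 0.11 (SD, n = 6). The difference was 0.19 ± 0.08 (SE), with a 95% interval from 0.01 to 0.37, and the fold change of 1.14 was below the limit. The limma P value was 0.0373 unadjusted and 0.322 adjusted, and the exact permutation test gave 0.0368. Within slides 1, 2 and 3 the difference was 0.28, 0.02 and 0.15, and mouse 3 was the only nitrate treated mouse on slide 2. The limma P value was no longer under 0.05 with 75th percentile scaling (P value 0.0531), normexp (0.0680) or the replicate block (0.153). It was also not under 0.05 in 8 of the 11 analyses without 1 mouse, where P values ran from 0.00605 to 0.0881 and differences from 0.17 to 0.26.

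Thbd and F2r, both of which bind thrombin at the cell surface, were also compared within arrays. The Thbd log2 signal minus that of F2r, a relative measure in which only its change is read, was 0.61 ± 0.09 (SD, n = 6) in controls and 0.42 ± 0.15 (SD, n = 5) after nitrate. The difference was -0.19, with a two-sided exact permutation P of 0.0260, and 0.0519 after adjustment over the 2 pairs tested. This difference was not past 0.05 in 6 of the 11 analyses that left out 1 mouse, where it ran from -0.22 to -0.15. The ratio does not show that either gene was unchanged.

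F3 encodes tissue factor, which initiates coagulation and is made mainly outside the endothelium, in the adventitia and smooth muscle. Its brightest probe, at chr3:121437717-121437776, gave 11.35, 12.05, 12.07, 11.94 and 11.88 in nitrate treated mice 1 to 5, and 11.51 to 11.98 with a median of 11.75 in controls. Nitrate treated mouse 1 was the lowest of all 11 and mice 2 and 3 were the highest, so the groups overlapped over most of the range. The difference was 0.09 ± 0.13 (SE), with a 95% interval from -0.20 to 0.38 and an exact permutation P of 0.550. The splice junction probe gave 8.46, 9.03, 9.09, 8.52 and 8.70, and 8.33 to 8.97 with a median of 8.65 in controls. Its difference of 0.13 ± 0.15 (SE) had a limma P value of 0.414, so over all 11 mice neither probe had a limma P value under 0.05. Without nitrate treated mouse 1, the brightest probe differed by 0.21 (limma P value 0.0477, adjusted P = 0.407), a fold change under 1.2. With other single mice left out it fell as low as 0.03, without nitrate treated mouse 3, and it was 0.04 without mouse 2 or without control 1.

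Tfpi encodes the endothelial inhibitor of the complex of tissue factor and factor VIIa. Its brightest probe, at chr2:84273059-84273118, gave 7.41, 7.58, 7.18, 7.74 and 7.62 in nitrate treated mice 1 to 5, and 7.12 to 7.71 with a median of 7.21 in controls. Mouse 3 was again the lowest of the nitrate treated group, and the groups overlapped. The difference was 0.19 ± 0.13 (SE), with an exact permutation P of 0.186. The probe at chr2:84281022-84281081 had a difference of 0.22 ± 0.15 (SE, exact permutation P = 0.188), and the probe at chr2:84284179-84284238 one of 0.08 ± 0.10 (SE, exact permutation P = 0.418). Over all mice the 3 probes had differences of the same sign, and none passed. Within slides 1, 2 and 3 the differences were 0.32, 0.01 and 0.08 for the brightest probe, 0.43, -0.04 and 0.08 for the second, and 0.42, -0.15 and -0.09 for the third. On slide 2 the nitrate treated group was mouse 3 alone. Without the 4 mice of slide 1 the third probe turned to -0.11. Without nitrate treated mouse 3 the brightest probe rose by 0.28 (limma P value 0.0484, adjusted P = 0.401) and the second by 0.32 (limma P value 0.0453, adjusted P = 0.396). Without control 3 the brightest rose by 0.27 (limma P value 0.0350, adjusted P = 0.332). Over all 11 analyses without 1 mouse, the differences ran from 0.14 (without nitrate treated mouse 4) to 0.28 for the brightest probe, from 0.14 (without control 1) to 0.32 for the second, and from 0.03 (without control 2 or nitrate treated mouse 1) to 0.12 for the third. The change of F3 relative to Tfpi was -0.11, with an exact permutation P of 0.517. It moved to -0.24 without nitrate treated mouse 3 (exact permutation P = 0.0476) and to -0.00259 without mouse 1 (exact permutation P = 0.981).

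**Figure D2:**
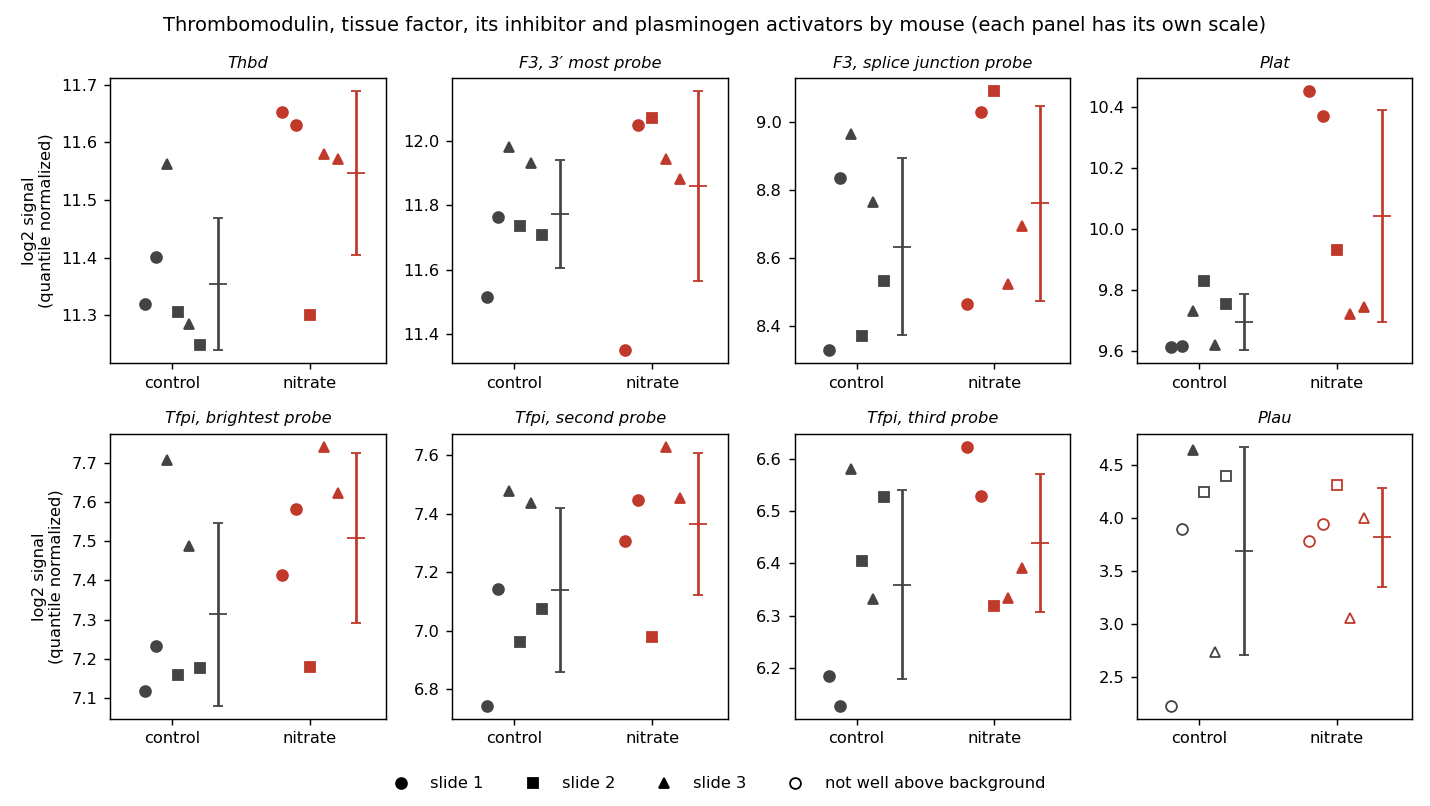
Log2 quantile normalized signal of the probes of Thbd, F3, Tfpi, Plat and Plau in 6 control (grey) and 5 nitrate treated (red) mice, with mean ± SD beside the points and symbol shapes for the 3 slides. Each panel has its own scale, and open symbols were not well above background. Plat is highest in the nitrate treated mice of slide 1, 10.45 and 10.37, while the 2 nitrate treated mice of slide 3 lie within the controls.

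Plat encodes tissue plasminogen activator, which endothelial cells release to start the breakdown of fibrin. Its log2 signal was 10.45, 10.37, 9.93, 9.72 and 9.74 in nitrate treated mice 1 to 5, and 9.61 to 9.83 with a median of 9.67 in controls. Mice 1, 2 and 3 lay above every control, and mice 4 and 5 lay within the control range. The means were 10.04 ± 0.35 (SD, n = 5) and 9.70 ± 0.09 (SD, n = 6). The difference was 0.35 ± 0.14 (SE), with a 95% interval from 0.05 to 0.64 and a fold change of 1.27. The P value was 0.0247 unadjusted and 0.294 adjusted with limma, and the exact permutation test gave 0.0216.

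The Plat difference varied in size between slides. It was 0.79 on slide 1, which held nitrate treated mice 1 and 2 and controls 1 and 2. On slide 2, with 1 nitrate treated mouse, it was 0.14, and on slide 3 it was 0.06. A limma test of treatment by slide, added after these values had been seen, gave a P value of 0.00120 for Plat, with adjusted P = 0.568 among all transcripts tested. Because those values prompted it, the test is no separate evidence of a difference between slides. For F2r the same test gave a P value of 0.667 (limma, adjusted P = 0.944). Without the 4 mice of slide 1 the Plat difference was 0.06, which restates the slide values, since that slide was left out for its large Plat difference. It is given as a description with no test. Without nitrate treated mouse 1 alone, Plat differed by 0.25 (limma P value 0.0684, adjusted P = 0.435), and without mouse 2 alone by 0.27 (limma P value 0.0708, adjusted P = 0.530). With slide as a block it was 0.35 (limma P value 0.0160, adjusted P = 0.213), and with the replicate block 0.36 (limma P value 0.0520, adjusted P = 0.387).

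Plau encodes urokinase, the other plasminogen activator, which acts at the surface of cells that bear its receptor. Its probe at chr14:21662242-21662301 was well above background in 1 control and in 0 nitrate treated mice. The signal lay between 3.06 and 4.31 in nitrate treated mice and between 2.23 and 4.64 in controls, so that Plat was the one plasminogen activator that could be compared.

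**Figure D3:**
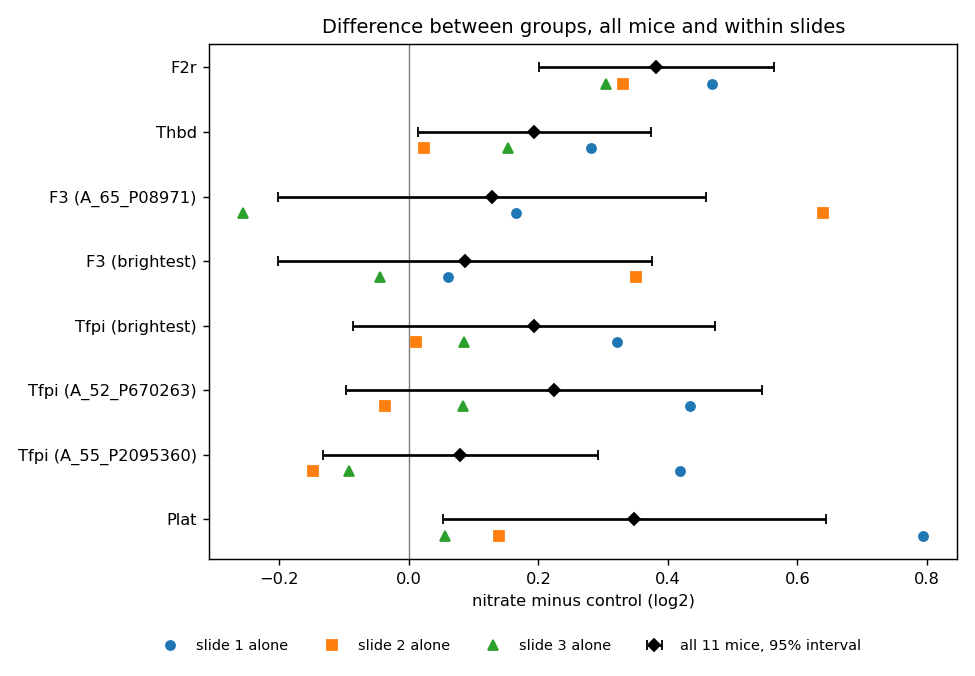
Difference of nitrate treated minus control mice in log2 signal for the 8 detected probes, with 95% intervals from limma over all 11 mice (black) and the difference within each slide (colored). F2r is above 0 on all 3 slides, from 0.30 to 0.47, whereas Plat is at 0.79 on slide 1 and at 0.06 on slide 3. Slide 2 held only 1 nitrate treated mouse.

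**Figure D4:**
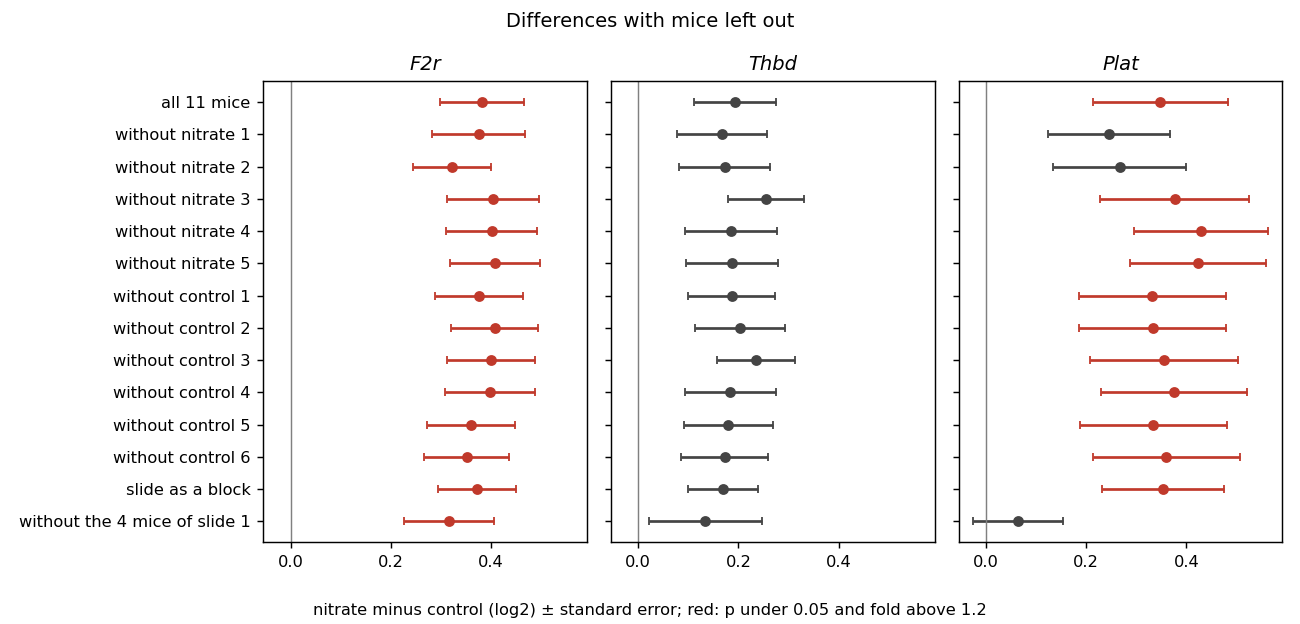
Difference in log2 signal ± standard error for F2r, Thbd and Plat with all mice, without each mouse in turn, with slide as a block, and without the 4 mice of slide 1. Red marks called differences. F2r is red in every row and Thbd shows one sign throughout. Slide 1 was chosen for its large Plat difference, so the low Plat value without it restates the slide values.

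Markers of cell types in the aorta were set beside these values. All 10 endothelial markers were detected, among them Egfl7 and Kdr, and 0 were called, with 0 at an unadjusted limma P value under 0.05. Their median difference was -0.03, and the summed signal lay between 17168 and 19543 in nitrate treated mice and between 16758 and 20313 in controls. All 8 smooth muscle markers, among them Acta2 and Tagln, were detected and had differences above 0 with a median of 0.18, and Lmod1 was called higher. An unadjusted limma P value under 0.05 was found for 2 of the 8, Lmod1 and Smtn, and Smtn also separated the groups without overlap. Their summed signal lay between 690319 and 724444 in nitrate treated mice and between 546918 and 718736 in controls. Control 1 alone gave that lowest value, and the other 5 controls lay at 662540 or above. All 8 fibroblast markers, among them Dcn and Pi16, also had differences above 0, with a median of 0.14, summed signals from 124893 to 154486 against 112306 to 140710, control 1 again being the lowest. None was called, and 2 of the 8, Lum and Pi16, had an unadjusted limma P value under 0.05. The part of these shifts in the rise of F2r was not tested.

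Adipocyte markers had differences below 0, from -0.84 to -0.16 with a median of -0.30. All 10 were detected, among them Fabp4 and Cfd. Of these 10, 5 were called lower, Cfd among them but not Fabp4, beside 4.85% of all detected transcripts. The mean log2 signal of Fabp4 was 16.89 in nitrate treated mice and 17.05 in controls. Fat cell RNA was thus present, although the aorta was described as cleaned of fat. The summed adipocyte signal lay between 319003 and 427672 in nitrate treated mice and between 433269 and 549777 in controls, without overlap. Of 6 platelet markers, 4 were detected, among them Pf4 and Gp1bb, and Ppbp and Itga2b were not. The median difference of the 4 platelet markers was 0.26 with 0 called, and their mean log2 signal was 7.51, 7.30, 7.37, 6.91 and 6.61 in nitrate treated mice 1 to 5, and 6.73 to 7.35 in controls. The mean was highest in nitrate treated mice 1, 2 and 3, as was Plat within that group, but control 1 had a mean of 7.35 with the lowest Plat signal of all mice, 9.61. The summed platelet signal rests mainly on Pf4, whose log2 signal was 11.14 or more on every array. The other detected platelet markers lay at 6.61 or below. This sum gave another order, at 2502, 3546, 3956, 3358 and 2564 in nitrate treated mice 1 to 5 and 2778 to 3401 in controls. Nitrate treated mouse 1, the highest in Plat, had the lowest sum of all 11. The part of adipocyte and platelet RNA in the values of Plat and F2r was not tested. Of the other lists, none of the 6 mesothelial markers was detected. The lists for macrophages (median difference 0.09), red cells (-0.45), heart muscle (0.93) and skeletal muscle (0.33) had no called gene, and those for brown adipocytes, nerve and T cells had 1 each, all lower (Cidea, Mbp and Cd2). For heart muscle, 2 arrays stood far above the rest in summed signal, nitrate treated mouse 4 at 55203 and control 1 at 35184, while the other 9 lay between 1733 and 8947.

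The other genes of the pathway were read from a list of 63, all of which have a probe. Of these, 38 were detected and 4 were called, all higher, which is 10.5% beside 9% of all detected transcripts. The count of 4 fell to 2 with 75th percentile scaling, with normexp, and without nitrate treated mouse 2 or 4, and to 1 without control 1, and it was 6 without nitrate treated mouse 5. Differences were above 0 in 24 of the 38, with a median of 0.07. None of the 38 separated the groups without overlap, as did 2.75% of all detected transcripts in either direction, and after adjustment 0 passed with limma, against 5 at an unadjusted P value under 0.05.

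Among fibrinolysis genes, 7 of 11 were detected and 1 was called. Serpini1, which encodes neuroserpin, an inhibitor of tissue plasminogen activator, was higher by 0.51 ± 0.15 (SE, limma P = 0.00524, exact permutation P = 0.0108). It lay between 10.74 and 11.19 in nitrate treated mice and between 9.93 and 10.88 in controls, and its second probe was higher by 0.36 (limma P value 0.00176, adjusted P = 0.156). The urokinase receptor Plaur differed by 0.12 (exact permutation P = 0.550).

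Among coagulation inhibitors, 4 of 12 were detected, all 4 had differences above 0, and 1 was called. Entpd1, which encodes CD39, an endothelial enzyme that breaks down the platelet agonist ADP, was higher by 0.32 ± 0.11 (SE, limma P = 0.0140, exact permutation P = 0.0195). The protein C receptor Procr differed by 0.25 (exact permutation P = 0.0909) and the protein C cofactor Pros1 by 0.14 (exact permutation P = 0.0649), neither past the test. Of 16 coagulation factors, most of them made in liver, 5 were detected and 0 were called, and Vwf alone had an unadjusted limma P value under 0.05. Vwf encodes von Willebrand factor, the endothelial protein that tethers platelets, and its difference was 0.22 (exact permutation P = 0.0238), a fold change of 1.16.

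Of 18 genes of receptor signaling, which included G proteins, phospholipases, kinases and receptor-cleaving proteases, 17 were detected and 1 was called. St14, which encodes matriptase, a membrane protease known to cleave PAR2, was higher by 0.31 ± 0.14 (SE, limma P value 0.0422, exact permutation P = 0.0260), from 4.73 to 5.56 in nitrate treated mice and from 4.45 to 4.86 in controls. These signals are low, as Plau was not well above background in a control where it gave 4.39. The other 16, among them Gna12, Gna13, Gna11, Rhoa, Rock1 and Rock2, were not called. Of 6 genes of vitamin K use and secretion, 5 were detected, and Gas6, the vitamin K dependent ligand of TAM receptors, was higher by 0.27 ± 0.11 (SE, limma P = 0.0303, exact permutation P = 0.0152).

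**Figure D5:**
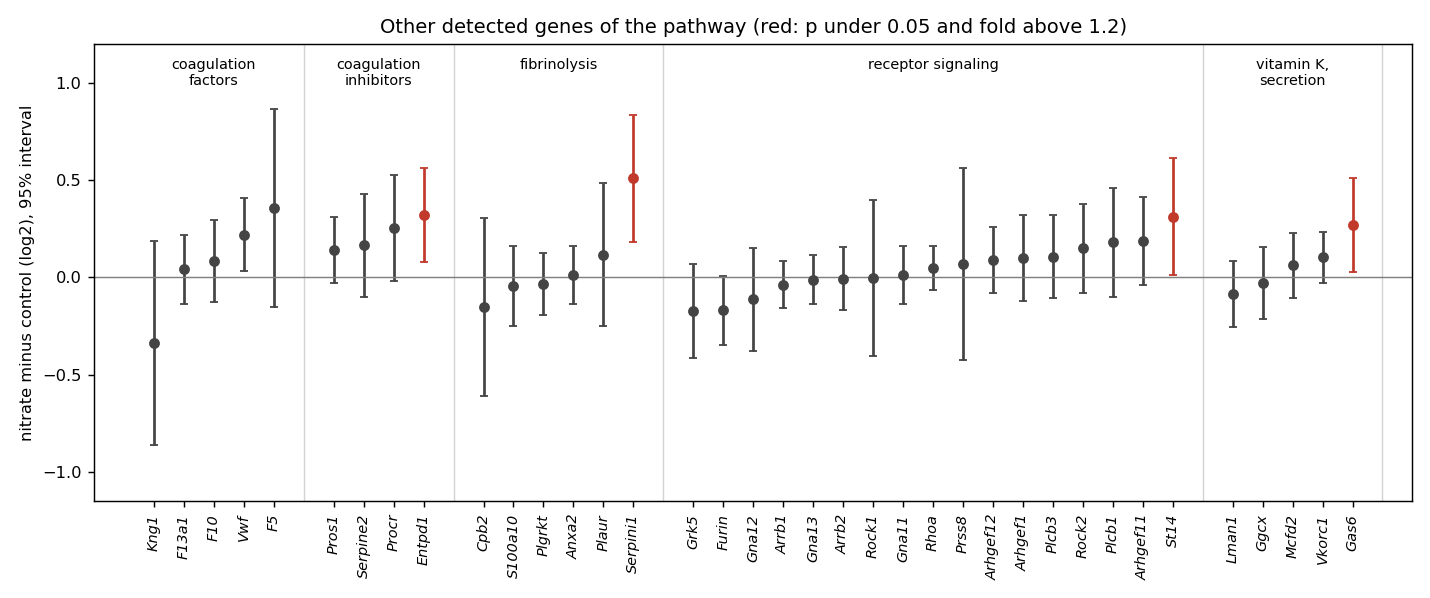
Difference of nitrate treated minus control mice in log2 signal, with 95% intervals from limma, for detected genes of the pathway list in 5 groups, with 1 gene left out. The 4 genes in red, Entpd1, Serpini1, St14 and Gas6, were called, all of them higher in nitrate treated mice.

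Genes whose signal varied most like that of the 2 called genes were taken from 17398 detected probes with a gene symbol. The measure was the Pearson correlation over 11 arrays of the deviations from the group means. The points share their arrays and normalization, so these values are descriptions. For F2r the closest were Orai2 (r = 0.941), Prss12 (r = 0.919) and Serpinb6b (r = 0.903). For Plat they were Kank4 (r = 0.949), Serinc2 (r = 0.949) and Naa38 (r = 0.918). Among the 10 pairs of the 5 detected genes of the chosen set, r ran from -0.39 for F3 and Plat to 0.70 for Tfpi and Thbd. The next highest were F2r and Plat, at 0.58, and F2r and Thbd, at 0.57, and Tfpi with Plat (-0.19) and Thbd with F3 (-0.14) were also below 0.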

How the data were processed

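The 9 genes and the pathway and marker lists were chosen with earlier results of these data known. The authors deposited spot intensity values from Feature Extraction 10.7.1.1, background-subtracted and not normalized between arrays, and a table of log2 values, which was used as an alternative. Here, processed signals were raised to at least 1, put on the log2 scale without control spots and outlier-flagged spots, averaged over the spots of a probe and quantile normalized over the 11 arrays. Flagged spots can hide single values, and quantile normalization removes shifts shared by all transcripts.

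Groups were compared with lmFit and eBayes (R 4.3.3, limma 3.58.1) with the P value and fold limits of the study's methods, over probes detected on at least 5 arrays of either group, with Benjamini-Hochberg adjustment over all of these probes, and with two-sided exact permutation tests for single values. The test was tried on simulated data. A gene was represented by its brightest detected probe. Gene names are those of the files, and Plgrkt was matched through an older name in a RefSeq table. Each array is from a separate mouse. Named were all 9 genes, called or non-overlapping pathway genes, the 2 brightest markers of the endothelial, smooth muscle, fibroblast, adipocyte and platelet lists, and the 3 probes most like each called gene. Vwf, Procr, Pros1, Plaur, Lmod1, Smtn, Lum, Crhbp, S100z, Iqgap2, Ppbp, Itga2b, Cidea, Mbp, Cd2 and the receptor signaling genes that were not called fall outside this rule and were chosen after their values had been seen. Pathway enrichment was not repeated, and the values of 1 pathway gene are not reported here. Leaving out mice changed neither the normalization nor the set of detected probes.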

Additional observations from a re-analysis of the deposited data

Results flagged for a closer look

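The lowest and highest mice of each group were checked for the 8 detected probes, 16 groups in all, of which 2 had a mouse set apart from the rest, where chance would give about 0.8. For Thbd, nitrate treated mouse 3 was low, with 0.771 of the range of its group between it and the next mouse. For the brightest F3 probe, nitrate treated mouse 1 was low, with a share of 0.739. Without mouse 3, Thbd was higher in nitrate treated mice by 0.26 (limma P value 0.00605, adjusted P = 0.278), and without mouse 1, F3 by 0.21 (limma P value 0.0477, adjusted P = 0.407). Neither fold change passed 1.2, and leaving out other mice lowered both differences in most cases, so these values are the highest of the 11 such analyses. No cause was tested.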

How the results depend on the processing

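F2r was called under each of the 10 alternatives run for it, with differences from 0.35 to 0.39, and in all 11 analyses without 1 mouse, but its adjusted P value lay between 0.0859 and 0.256 over the alternatives. No scaling moved the median of all transcripts by over 0.1. With limma, the count of 2 called genes became 1 with the replicate block and 0 at an adjusted P value under 0.05. The 4 pathway genes became 2 with 75th percentile scaling, 2 with normexp and 0 with adjustment. The 2128 transcripts became 1218 with normexp, 3224 without a detection filter, 3394 without a fold limit and 3 with adjustment. The change of Thbd relative to F2r was -0.18 with normexp (exact P = 0.0996). With each mouse left out in turn, called genes ran from 1 (without nitrate 1 or 2) to 3 (without nitrate 3 or control 3), pathway genes from 1 (without control 1) to 6, all transcripts from 1596 to 2424, F3 relative to Tfpi from -0.24 to -0.00259 (exact P = 0.0476 without nitrate 3), and Thbd relative to F2r from -0.22 to -0.15. Without the 4 mice of slide 1, chosen after seeing the data, 1 gene, 1 pathway gene and 1195 transcripts were called, Thbd relative to F2r was -0.18 (exact P = 0.114), and the third Tfpi probe reversed, at -0.11. Plat with the replicate block was 0.36 (limma P value 0.0520, adjusted P = 0.387). Same-numbered mice had correlations of deviations between -0.14 and 0.18. Such values cannot settle whether the numbers pair the mice, so the replicate block is given as an alternative. The causes were not tested.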
